A study of Mus musculus with 16 samples.

Results

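The genes described here are 9 genes of the complement system: the C1q chains C1qa, C1qb and C1qc, the central components C3 and C4b, the receptors C3ar1, C5ar1 and Itgam, and the inhibitor Serping1. They were chosen by symbol, as the rows of the count files whose Ensembl identifiers map to these symbols in the GRCm38 annotation. They are 9 of the 49671 genes listed. This list and the other gene lists used here were chosen with earlier results of these data known. All 9 passed the filter on low counts and were tested. Transcripts were counted in whole brains of 16 C57BL/6 mice, each the source of a single library, and the design crossed 2 injections to give 4 groups with 4 mice per group. The first was an intraperitoneal injection of the pregnant dam with saline or lipopolysaccharide (LPS, the bacterial cell-wall lipid sensed by Toll-like receptor 4) on gestation day 16. The second was an intraperitoneal injection of the male offspring on postnatal day 30, called pubertal here, also with saline or LPS. Brains were taken on postnatal day 32, so the pubertal injection preceded sampling by a short time and the prenatal injection by weeks. The Saline-Saline mice received no LPS, LPS-Saline only through the dam, Saline-LPS only at puberty, and the LPS-LPS mice at both times. Taking the word before the hyphen as the dam's injection is a reading of the labels, and the opposite reading would exchange prenatal and pubertal everywhere here. No litter is given, so some mice of a group may be littermates, and the p-values refer to variation among individual mice.

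Complement is a cascade of plasma and tissue proteins. C1q, a bundle of A, B and C chains, recognises antibody, debris and cell surfaces. The proteases bound to it cleave C4 and C2, which together cleave C3. Fragments of C3 then coat the target and are bound by complement receptor 3, of which Itgam (CD11b) is one subunit, while the small fragments of C3 and C5 signal through C3ar1 and C5ar1. Serping1, the C1 inhibitor, inactivates the C1 proteases. In the brain, microglia are the main source of C1q, and C1q and C3 are known for marking synapses for removal by microglia during development.

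C1qa, C1qb and C1qc lie next to each other on the minus strand of chromosome 4 (GRCm38, GENCODE M21 annotation). C1qb is at chr4:136880129-136886187, C1qc at chr4:136889804-136893065 and C1qa at chr4:136895917-136898803. The 3 genes span 18675 bases, with 3616 bases between C1qb and C1qc and 2851 between C1qc and C1qa. C3 is at chr17:57203970-57228136, C4b at chr17:34728380-34743882, C3ar1 at chr6:122847138-122856161, C5ar1 at chr7:16246743-16259540 and Serping1 at chr2:84765387-84775444, all on the minus strand, and Itgam is at chr7:128062640-128118491 on the plus strand. The RefSeq promoter table (GRCm38.p6) held entries for 6 of the 9 genes. The sequence upstream of 4 of these is shown because their transcripts were higher in the offspring of LPS-treated dams, as described below. Only bases outside the annotated gene are printed, 5′ to 3′ on the strand of the gene, and capitals mark a motif found by a letter search.
C1qb, chr4:136886201-136886400, minus strand: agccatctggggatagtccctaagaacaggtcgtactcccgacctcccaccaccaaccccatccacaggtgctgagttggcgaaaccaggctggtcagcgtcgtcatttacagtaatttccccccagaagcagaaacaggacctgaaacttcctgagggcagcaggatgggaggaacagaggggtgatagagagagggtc
C1qc, chr4:136893066-136893164, minus strand: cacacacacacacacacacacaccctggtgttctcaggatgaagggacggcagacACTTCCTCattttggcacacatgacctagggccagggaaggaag
C3, chr17:57228137-57228336, minus strand: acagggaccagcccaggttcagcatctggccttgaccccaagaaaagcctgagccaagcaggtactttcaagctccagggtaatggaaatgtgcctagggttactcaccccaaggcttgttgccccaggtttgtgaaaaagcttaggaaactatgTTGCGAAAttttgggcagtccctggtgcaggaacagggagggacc
C3ar1, chr6:122856162-122856361, minus strand: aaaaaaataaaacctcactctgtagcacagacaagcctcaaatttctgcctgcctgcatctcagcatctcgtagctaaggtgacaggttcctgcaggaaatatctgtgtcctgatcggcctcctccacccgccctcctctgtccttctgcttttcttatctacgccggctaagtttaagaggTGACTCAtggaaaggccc
The capitals in C1qc are the reverse complement of GAGGAAGT, the letters searched for the ETS factor PU.1, 195 bases before the RefSeq start. Those in C3 match TTGCNNAA, searched for C/EBP factors, 45 bases before the start. Those in C3ar1 match TGANTCA, searched for AP-1, 22 bases before the start. Over the 32851 promoters of the table, each 300 bases long, GAGGAAGT on either strand occurred in 3.2%, TTGCNNAA in 10.8% and TGANTCA in 7.81%. None of the 6 motifs searched (these, TTCNNNGAA for STAT factors, TATAAA and GAAANNGAA) occurred in the printed sequence of C1qb. A match describes these letters and is not a measured binding site.

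The libraries held between 25729919 and 38571036 counts in genes, with a median of 31810758. At these depths 1 read was worth at most 0.0386 CPM (counts per 1000000 counts of the library, the library size scaled by TMM), so counting error is small for C1q and larger for C3, C3ar1 and C5ar1. Some libraries stood apart. Gabra6, a marker of cerebellar granule cells, was under 1 CPM in 8 libraries (LPS-LPS 2, LPS-Saline 1 and 2, Saline-LPS 1 and 2, Saline-Saline 1, 2 and 3) and between 2.51 and 70.4 CPM in the other 8. The library labelled LPS-LPS 3 held 503.3 CPM of Xist and no counts of the Y-linked gene Ddx3y, although the labels describe male offspring. LPS-LPS 1 held 502.5 CPM and Saline-LPS 1 held 44.1 CPM of growth hormone (Gh), a pituitary transcript. Results that rest on these 3 libraries are given with and without them. The markers of the labelled tissue were present in every library, with 5 neuronal markers summing to 3126 to 4010 CPM and 12 microglia markers to 237 to 358.9 CPM.

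Per kilobase of exon, the C1q chains had the highest levels of the 9 genes. The group means ran from 42.8 to 66.2 CPM per kilobase for C1qa, from 32.3 to 50.5 for C1qb and from 21.1 to 32.1 for C1qc. C4b followed at 4.39 to 6.21 and Serping1 at 3.203 to 4.48 CPM per kilobase. Itgam was at 0.877 to 0.971, C3ar1 at 0.306 to 0.518, C3 at 0.191 to 0.422 and C5ar1 at 0.249 to 0.304 CPM per kilobase. C3ar1 was above C5ar1 in all 4 group means, while the range of C3 overlaps those of both. The level of Itgam is uncertain, since 3450 of its 5024 exonic bases are shared with Gm49368, an annotated gene on the same strand that received 0 counts in 15 libraries and 2 counts in 1. Reads in the shared exons may not have been assigned to Itgam, and the counting mode is not given in the sources used here.

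The C1q transcripts were higher in the mice whose dams had received LPS. In C1qa, the A chain, the Saline-Saline mice had 44.3, 51.3, 42.3 and 40.1 CPM and the LPS-Saline mice 76.7, 62.3, 64.8 and 55.8 CPM. After the pubertal LPS injection, C1qa was at 55.04, 45.7, 50.7 and 43.5 CPM in the Saline-LPS mice and at 73.0, 67.0, 72.2 and 63.0 CPM in the LPS-LPS mice. All 8 mice of LPS-treated dams were above all 8 mice of saline-treated dams, the nearest being LPS-Saline 4 at 55.8 and Saline-LPS 1 at 55.04 CPM. C1qa rose with prenatal LPS alone by 0.54 ± 0.09 on the log2 scale (SE, n = 4 against 4, edgeR quasi-likelihood test over 18875 genes, Benjamini-Hochberg adjusted p = 0.0207). A gene with an adjusted p under 0.05 is said to be called. This call of C1qa was lost in 5 of the 16 fits with 1 library left out (without Saline-Saline 1, 3 or 4, or LPS-Saline 1 or 3), with a highest adjusted p of 0.11. Among mice that all received LPS at puberty, C1qa rose with prenatal LPS by 0.50 ± 0.09 (adjusted p = 0.0189), a call lost without LPS-LPS 1 or LPS-LPS 3. Averaged over the pubertal injection, the prenatal effect on C1qa was 0.52 ± 0.07, from 46.6 ± 5.17 to 66.9 ± 6.80 CPM (SD, n = 8 each, adjusted p = 0.000239). In whole tissue, a change in the number of cells that make a transcript and a change in the transcript per cell cannot be told apart.

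C1qb, the B chain, had the smallest adjusted p of the 9 genes. Its values were 36.0, 39.0, 34.3 and 31.4 CPM in the Saline-Saline mice and 56.4, 48.1, 51.9 and 43.7 CPM in the LPS-Saline mice. The Saline-LPS mice had 38.9, 37.3, 41.8 and 36.3 CPM of C1qb and the LPS-LPS mice 55.7, 55.03, 57.7 and 51.2 CPM. The mice of LPS-treated and saline-treated dams again did not overlap. C1qb rose by 0.51 ± 0.08 with prenatal LPS alone (adjusted p = 0.00511) and by 0.51 ± 0.08 among the mice given LPS at puberty (adjusted p = 0.00435). The average over both was 0.51 ± 0.06, a 1.42-fold difference between 52.5 ± 4.74 and 36.9 ± 3.20 CPM (SD, n = 8 each, adjusted p = 1.89e-05), and 7 of the 18875 genes had a smaller p in that comparison.

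C1qc, the C chain, was at 39.4, 49.4, 39.2 and 34.9 CPM in the Saline-Saline mice and at 67.7, 57.0, 54.3 and 47.4 CPM in the LPS-Saline mice. These groups overlapped, since LPS-Saline 4 lay below Saline-Saline 2. C1qc was at 47.9, 39.2, 43.9 and 39.1 CPM in the Saline-LPS mice and at 63.5, 61.2, 67.3 and 56.2 CPM in the LPS-LPS mice, which did not overlap. With prenatal LPS alone the C1qc difference was 0.48 ± 0.11 and missed the threshold (adjusted p = 0.064), while with the replicate number as a block it passed it (0.47 ± 0.08, adjusted p = 0.00856). Among mice given LPS at puberty C1qc rose by 0.54 ± 0.11 (adjusted p = 0.0235), a call lost without any of Saline-LPS 2, 3 and 4 and LPS-LPS 1 and 3, and averaged over the pubertal injection by 0.51 ± 0.08 (adjusted p = 0.00117).

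**Figure D1:**
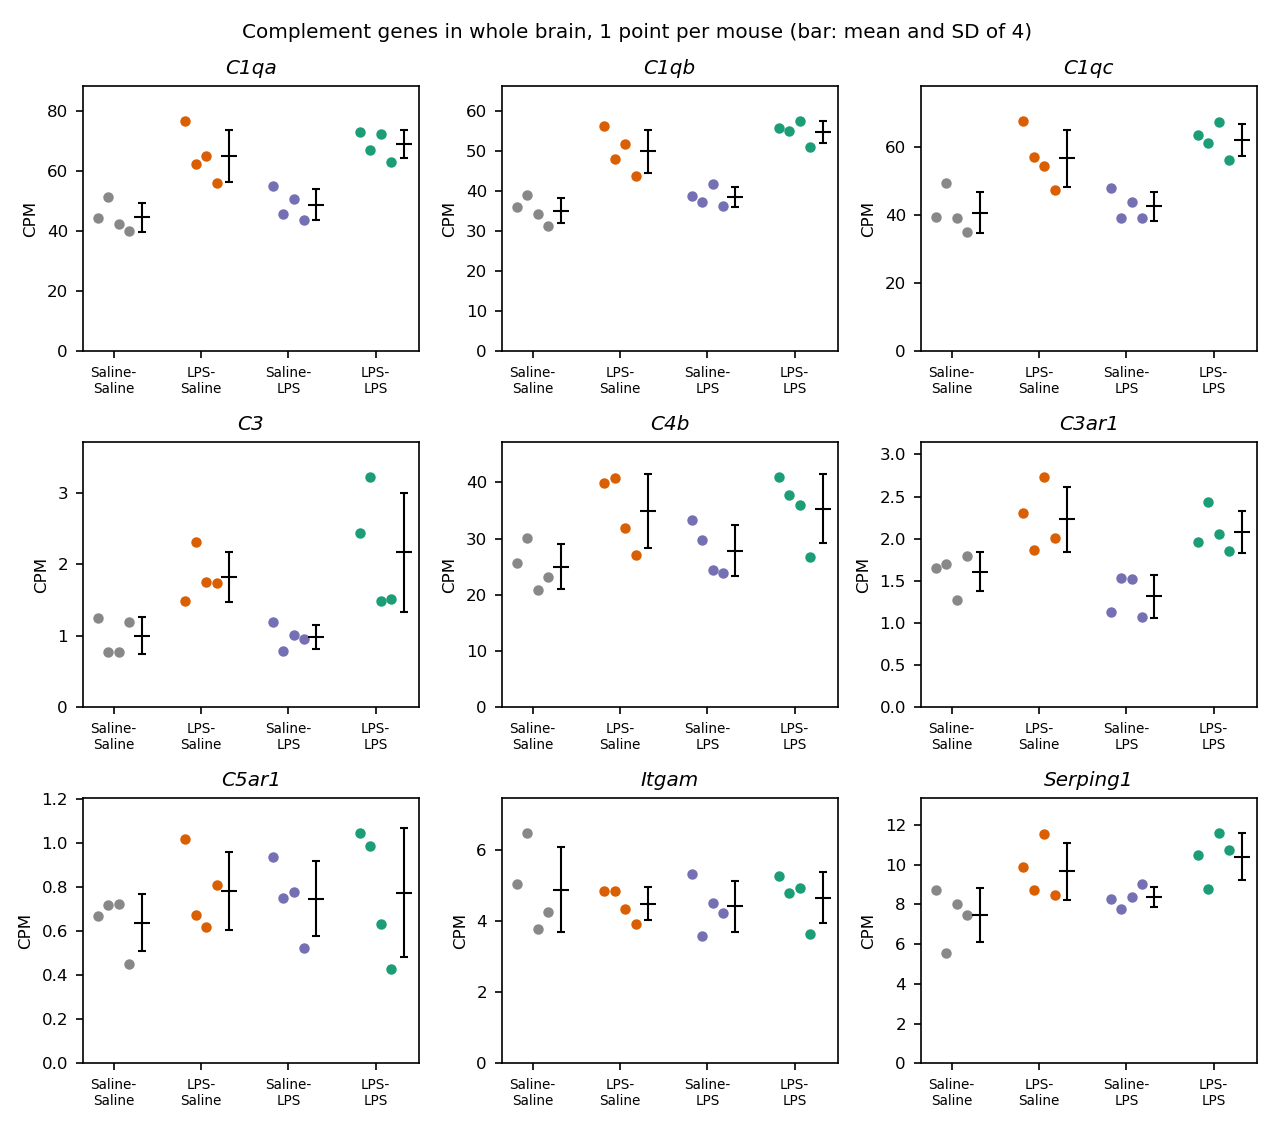
CPM of each of the 9 genes (vertical axes, from 0, linear) in the 4 groups, 1 point per mouse, with the mean and SD of 4 beside the points. In C1qa, C1qb, C3 and C3ar1 the 8 mice of LPS-treated dams all lie above the 8 mice of saline-treated dams, while C5ar1 and Itgam overlap in every group.

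The 3 C1q transcripts kept nearly the same proportions in every library. The ratio of C1qb to C1qa counts lay between 0.706 and 0.834 over the 16 libraries (0.790 ± 0.0351, SD), with group means between 0.773 and 0.799. The ratio of C1qc to C1qa lay between 0.837 and 0.963 (0.890 ± 0.0337), with group means between 0.871 and 0.913. The deviations of each C1q gene from its group means also moved together. As a description over the 16 libraries and 15231 genes with a mean of at least 1 CPM, the gene most like C1qa was C1qc (Pearson r = 0.961), followed by Gnai2 (0.943), Sntb1 (0.918), Cpe (0.913) and Slc9a3r1 (0.908). The most like C1qb were C1qa (0.896), C1qc (0.882), Xkr8 (0.876), Rab3il1 (0.873) and Cpe (0.866). The most like C1qc were C1qa (0.961), Cpe (0.922), Ikbke (0.889), Gnai2 (0.887) and C1qb (0.882). These points share libraries, depth and sample makeup.

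Markers of microglia were followed beside C1q. Of 12 microglia markers, 0 were called by edgeR in the average over the pubertal injection. There 4.9% of all tested genes were called higher and 2.92% lower. The median log2 difference of the 12 was 0.03. Single values ran from -0.16 for P2ry12 to 0.24 for Olfml3. Csf1r was at 0.22, Fcrls at 0.22 and Siglech at 0.21, and the others lay between -0.014 (P2ry13) and 0.04 (Tmem119). At an unadjusted p under 0.05 by edgeR, 3 of the 12 were higher and 0 lower. The same cut held 4379 of the 18875 tested genes in either direction, so the count of 3 is near the share of all genes. DESeq2 called 1 of the 12 (2271 of all genes), Olfml3 (0.24 by edgeR, adjusted p = 0.077), named after its values were seen. Their summed level was 237 to 347.3 CPM in Saline-Saline, 266.3 to 325.6 in LPS-Saline, 247.1 to 358.9 in Saline-LPS and 279.9 to 313.6 in LPS-LPS. Taken relative to the mean of these markers on the log2(CPM + 0.5) scale, C1q (the mean of its 3 genes) was higher by 0.98 to 1.18 in Saline-Saline, 1.41 to 1.65 in LPS-Saline, 1.01 to 1.31 in Saline-LPS and 1.55 to 1.64 in LPS-LPS. The mice of LPS-treated and saline-treated dams did not overlap on this measure either. With the marker mean as a covariate, the average prenatal effect was 0.46 for C1qa (adjusted p = 8.42e-06), 0.47 for C1qb (adjusted p = 9.62e-06) and 0.44 for C1qc (adjusted p = 3.91e-05). Border macrophages, which also make C1q, were followed by 8 markers, of which 0 were called by edgeR or DESeq2 in the prenatal average. At an unadjusted p under 0.05 by edgeR, 1 of the 8 was higher, beside the 4379 of all tested genes. This was Ms4a7 (0.66 ± 0.22, adjusted p = 0.0633), named after its values were seen. The summed level of the 8 was 36.0 to 51.5 CPM in Saline-Saline, 36.0 to 47.0 in LPS-Saline, 38.8 to 55.5 in Saline-LPS and 41.2 to 49.3 in LPS-LPS. Stab1 (median 22.5 CPM) was the largest part of these sums, so they do not follow Ms4a7 (median 0.505 CPM). The part of border macrophages in the result was not tested.

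**Figure D2:**
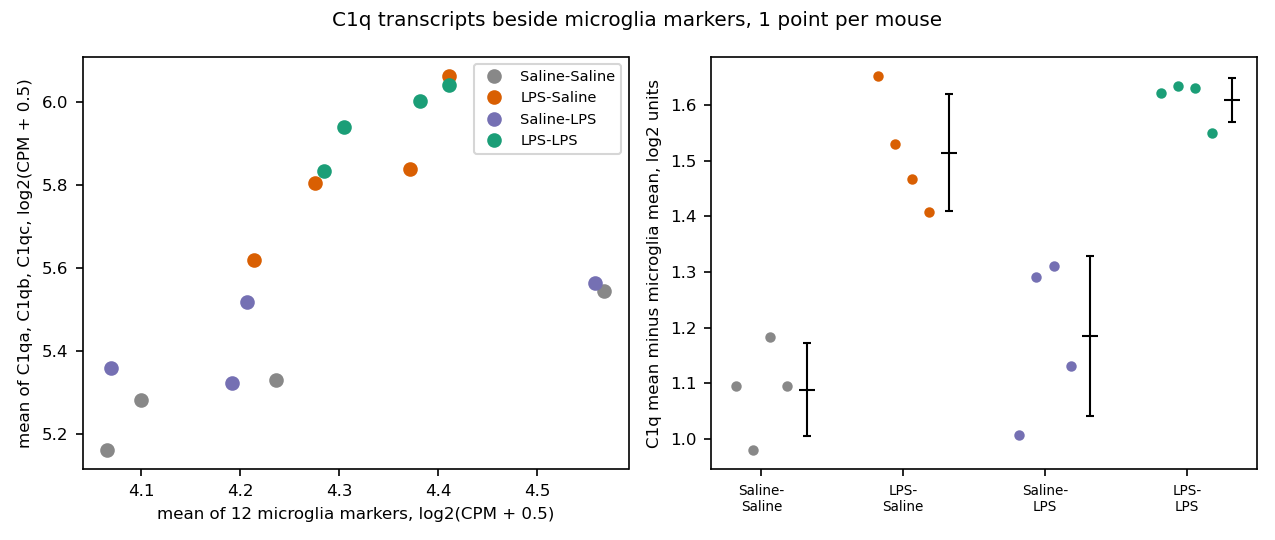
Left, the mean of C1qa, C1qb and C1qc against the mean of 12 microglia markers, both as log2(CPM + 0.5), 1 point per mouse coloured by group. Right, the difference of the 2 means by group with the mean and SD of 4: the mice of LPS-treated dams lie between 1.41 and 1.65 and those of saline-treated dams between 0.98 and 1.31 log2 units.

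C3, the component on which all complement pathways converge, was a low transcript with the largest prenatal difference of the 9 genes. It was at 1.26, 0.776, 0.777 and 1.19 CPM in the Saline-Saline mice and at 1.49, 2.31, 1.749 and 1.74 CPM in the LPS-Saline mice. In the Saline-LPS mice C3 was at 1.19, 0.788, 1.01 and 0.951 CPM and in the LPS-LPS mice at 2.44, 3.23, 1.49 and 1.52 CPM. No mouse of a saline-treated dam reached the lowest mouse of an LPS-treated dam, but the LPS-LPS mice spread widely, with LPS-LPS 1 and 2 well above the other 2. These levels rest on 121 to 268 counts per group in all. With prenatal LPS alone the C3 difference was 0.87 ± 0.25 and missed the threshold (adjusted p = 0.116). C3 rose by 1.13 ± 0.25 among mice given LPS at puberty (adjusted p = 0.0406), a call that held in 4 of the 16 fits with 1 library left out (Saline-Saline 2, LPS-Saline 1, LPS-Saline 2 or LPS-LPS 4). Without LPS-LPS 1 the C3 value was 0.88 (adjusted p = 0.141). Averaged over the pubertal injection C3 rose 2.002-fold, by 1.00 ± 0.18, from 0.991 to 1.995 CPM (adjusted p = 0.0029). The genes most like C3 in their deviations from group means were Mmp23 (r = 0.84), Tent4a (0.827), mt-Co2 (0.822), Nuak1 (0.809) and Usp10 (0.789), none of them another complement gene.

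C4b, the mouse C4 that C1 proteases cleave, has a near copy on the same chromosome, C4a at chr17:34809092-34823464 (long known as sex-limited protein), which GENCODE M21 lists as a processed transcript. Their longest transcripts (5379 and 5371 bases) were 95.9% identical in alignment, and 16.5% of 100-base windows occurred unchanged in both. A read lying wholly within such a window matches both genes. The window length was set for this comparison and is not the read length, so the share of ambiguous reads was not measured. A stretch where they can be told apart is shown with the bases that differ in capitals, 13 in 60 bases, within the coding part of C4b.
C4a, transcript bases 2755 to 2814: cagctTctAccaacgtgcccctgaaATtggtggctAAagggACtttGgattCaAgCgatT
C4b, transcript bases 2761 to 2820: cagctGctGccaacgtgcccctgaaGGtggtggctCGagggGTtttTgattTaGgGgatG
C4b was at 25.7, 30.2, 20.8 and 23.3 CPM in the Saline-Saline mice and at 39.9, 40.8, 31.9 and 27.2 CPM in the LPS-Saline mice. It was at 33.3, 29.8, 24.5 and 24.0 CPM in the Saline-LPS mice and at 41.0, 37.7, 35.9 and 26.7 CPM in the LPS-LPS mice. The groups overlapped in both comparisons. C4b did not pass the threshold with prenatal LPS alone (0.49 ± 0.16, adjusted p = 0.194) or among mice given LPS at puberty (0.34 ± 0.16, adjusted p = 0.351). With the replicate number as a block it passed in both (adjusted p = 0.00422 and 0.029). Averaged over the pubertal injection C4b rose by 0.41 ± 0.11 (35.1 ± 5.89 against 26.4 ± 4.22 CPM, SD, n = 8 each, adjusted p = 0.0355), a call kept in 12 of 27 alternative settings. With 1 library left out it held in 6 of 16 fits (without Saline-Saline 2, LPS-Saline 3 or 4, Saline-LPS 1 or 2, or LPS-LPS 4), the highest adjusted p being 0.079 without LPS-Saline 1. With C4a and C4b summed the value was 0.35 ± 0.12 (adjusted p = 0.0832).

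Astrocytes, which also make C4b and C3, were followed by 8 markers. Their summed level was 2004 to 2225 CPM in Saline-Saline, 1986 to 2334 in LPS-Saline, 2068 to 2650 in Saline-LPS and 2079 to 2401 in LPS-LPS. Of the 8, Gfap, the intermediate filament of astrocytes, was called higher in the prenatal average (0.22 ± 0.05, adjusted p = 0.0116) and in LPS-LPS against Saline-Saline (0.33 ± 0.07, adjusted p = 0.0103), and the median of the 8 in the average was -0.01. In the prenatal average 1 of the 8 was higher and 2 were lower at an unadjusted p under 0.05 by edgeR. The same cut held 4379 of the 18875 tested genes in either direction. DESeq2 called 1 higher and 1 lower there, and 2271 of all genes. The part of astrocytes in the C4b and C3 results was not tested.

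C4a was not called. Its mean was 4.08 CPM in Saline-Saline, 3.38 in LPS-Saline, 3.54 in Saline-LPS and 3.18 in LPS-LPS, and the average prenatal difference was -0.21 ± 0.18 (adjusted p = 0.54). The ratio of C4b to C4a counts was 5.44 to 6.76 in Saline-Saline, 9.31 to 13 in LPS-Saline, 6.31 to 12.4 in Saline-LPS and 9.79 to 14.2 in LPS-LPS. The ratio thus did not overlap between Saline-Saline and LPS-Saline but overlapped between the groups given LPS at puberty, where Saline-LPS 3 stood at 12.4. The genes most like C4b in their deviations from group means were Atp6v0c (r = 0.947), Slc35a2 (0.94), Cavin1 (0.927), Lrrk1 (0.927) and the class I heavy chain gene H2-K1 (0.921).

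**Figure D3:**
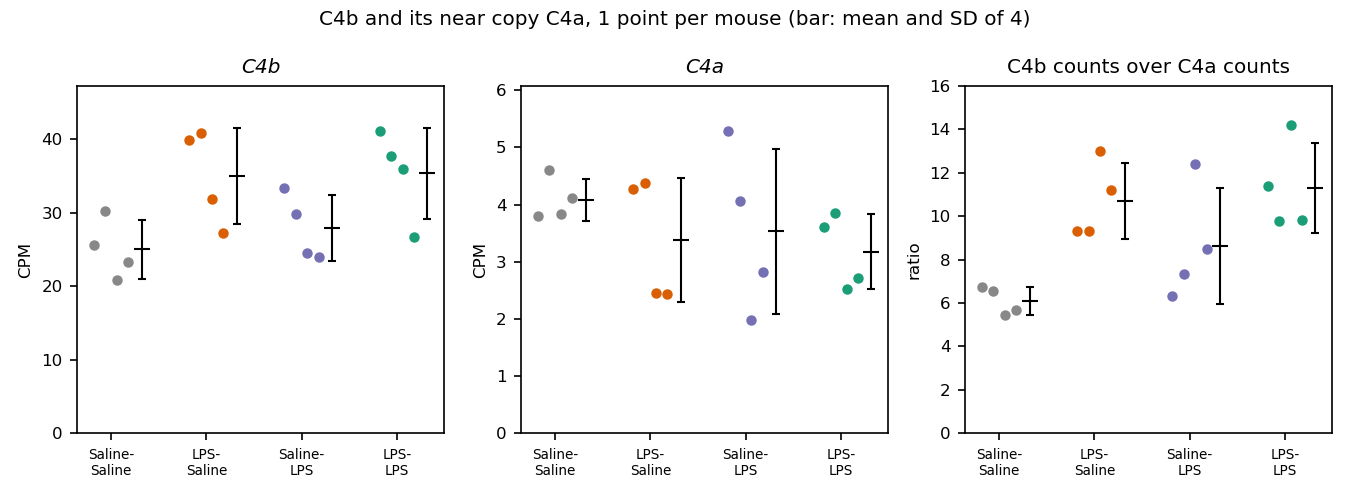
CPM of C4b (left) and C4a (middle) and the ratio of their counts (right) in the 4 groups, 1 point per mouse with the mean and SD of 4, all axes linear from 0. The ratio lies between 5.44 and 6.76 in Saline-Saline and between 9.31 and 14.2 in the LPS-Saline and LPS-LPS mice, with the Saline-LPS mice spread from 6.31 to 12.4.

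Of the receptors, C3ar1, which binds the C3a fragment, differed, while C5ar1 and Itgam did not pass the threshold in any comparison. C3ar1 was at 1.66, 1.70, 1.28 and 1.80 CPM in the Saline-Saline mice and at 2.31, 1.87, 2.74 and 2.01 CPM in the LPS-Saline mice. It was at 1.13, 1.54, 1.53 and 1.07 CPM in the Saline-LPS mice and at 1.97, 2.44, 2.06 and 1.85 CPM in the LPS-LPS mice. The mice of LPS-treated dams were all above those of saline-treated dams, by a margin of 1.85 against 1.80 CPM at the nearest. C3ar1 missed the threshold in each comparison alone (0.47 ± 0.18, adjusted p = 0.234, and 0.66 ± 0.18, adjusted p = 0.106). Averaged over the pubertal injection it rose by 0.57 ± 0.13 (2.15 ± 0.312 against 1.46 ± 0.272 CPM, SD, n = 8 each, adjusted p = 0.0104). The C3ar1 call held in all 16 fits with 1 library left out (highest adjusted p = 0.0283). Without LPS-LPS 1, LPS-LPS 3 and Saline-LPS 1 together the value was nearly the same, 0.56 ± 0.15, and missed the threshold (adjusted p = 0.0752).

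C5ar1, the receptor of the C5a fragment, ranged from 0.450 to 0.721 CPM in Saline-Saline, 0.621 to 1.02 in LPS-Saline, 0.521 to 0.938 in Saline-LPS and 0.430 to 1.05 in LPS-LPS. All groups overlapped on 89 to 99 counts per group. The average prenatal difference of C5ar1 was 0.16 ± 0.20, with a 95% interval of -0.26 to 0.58 (adjusted p = 0.695), so a difference as large as that of the C1q genes is within its interval. Itgam ranged from 3.77 to 6.48 CPM in Saline-Saline, 3.90 to 4.85 in LPS-Saline, 3.57 to 5.31 in Saline-LPS and 3.64 to 5.27 in LPS-LPS. Its average prenatal difference was -0.02 ± 0.11 with an interval of -0.26 to 0.21 (adjusted p = 0.941), and the sign changed between settings. The upper end of this interval is below the lower end of that of C1qb, 0.39. Itgam is also carried by neutrophils and monocytes. The 9 neutrophil markers summed to 1.22 to 4.57 CPM in Saline-Saline, 3.24 to 6.89 in LPS-Saline, 1.16 to 4.38 in Saline-LPS and 2.34 to 5.86 in LPS-LPS. Of these, 5 were tested and 0 were called by edgeR or DESeq2 in the prenatal average, and the median of Cxcr2 was 0 CPM. At an unadjusted p under 0.05 by edgeR, 2 of the 5 were higher there, as against 4379 of the 18875 tested genes in either direction. The 5 monocyte markers summed to 21.6 to 27.3 CPM in Saline-Saline and 19.8 to 23.9 in LPS-Saline. In the groups given LPS at puberty the sums were 20.6 to 24.8 in Saline-LPS and 20.0 to 22.6 in LPS-LPS. Nearly all of each sum was Vcan (median 21.3 CPM), so the sums do not follow Ccr2 (median 0.337 CPM). Of the 5, Ccr2 and Vcan were tested and neither was called by edgeR or DESeq2 in the prenatal average (0.91 ± 0.30, adjusted p = 0.0696, and -0.15 ± 0.06, adjusted p = 0.112), though both had an unadjusted p under 0.05.

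Serping1, the inhibitor of the C1 proteases, was at 8.71, 5.55, 8.04 and 7.49 CPM in the Saline-Saline mice and at 9.90, 8.71, 11.6 and 8.46 CPM in the LPS-Saline mice. It was at 8.25, 7.77, 8.38 and 9.02 CPM in the Saline-LPS mice and at 10.5, 8.79, 11.6 and 10.7 CPM in the LPS-LPS mice. The highest mouse of each control group was above the lowest mouse of the LPS-treated dams. Serping1 did not pass the threshold with prenatal LPS alone (0.37 ± 0.13, adjusted p = 0.194), though it did with the replicate number as a block (adjusted p = 0.0475), nor among mice given LPS at puberty (0.32 ± 0.13, adjusted p = 0.258). Averaged over the pubertal injection it rose by 0.35 ± 0.09, 1.27-fold (10.0 ± 1.27 against 7.90 ± 1.07 CPM, SD, n = 8 each, adjusted p = 0.0231). The call was lost in 5 of 26 alternative settings. These were without LPS-LPS 3 (adjusted p = 0.0572), without LPS-Saline 1 (adjusted p = 0.0516) and without LPS-Saline 3 (adjusted p = 0.0554). The others were without the 3 libraries that stood apart and within the libraries under 1 CPM of Gabra6. Over all 26 settings the Serping1 value ran from 0.249 to 0.388, with a highest adjusted p of 0.404. Meningeal and fibroblast markers, cells in which Serping1 is also made, summed to 226.7 to 279.3 CPM in Saline-Saline, 248.1 to 307.7 in LPS-Saline, 222.4 to 311.9 in Saline-LPS and 268.1 to 313.5 in LPS-LPS. Of 8 such markers 1 was called higher in the average, decorin (Dcn, 0.23, adjusted p = 0.0405), as were 4.9% of all tested genes. In LPS-LPS against Saline-Saline 1 of the 8 was called higher, Slc6a13 (0.51 ± 0.10, adjusted p = 0.00808), as were 4.27% of all tested genes. Both were named after their values were seen, and the part of these cells in the Serping1 result was not tested. The genes most like Serping1 in their deviations were Ccnq (r = 0.83), Saraf (0.827), Arl2 (0.826), Tuba1a (0.822) and Borcs7 (0.819).

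**Figure D4:**
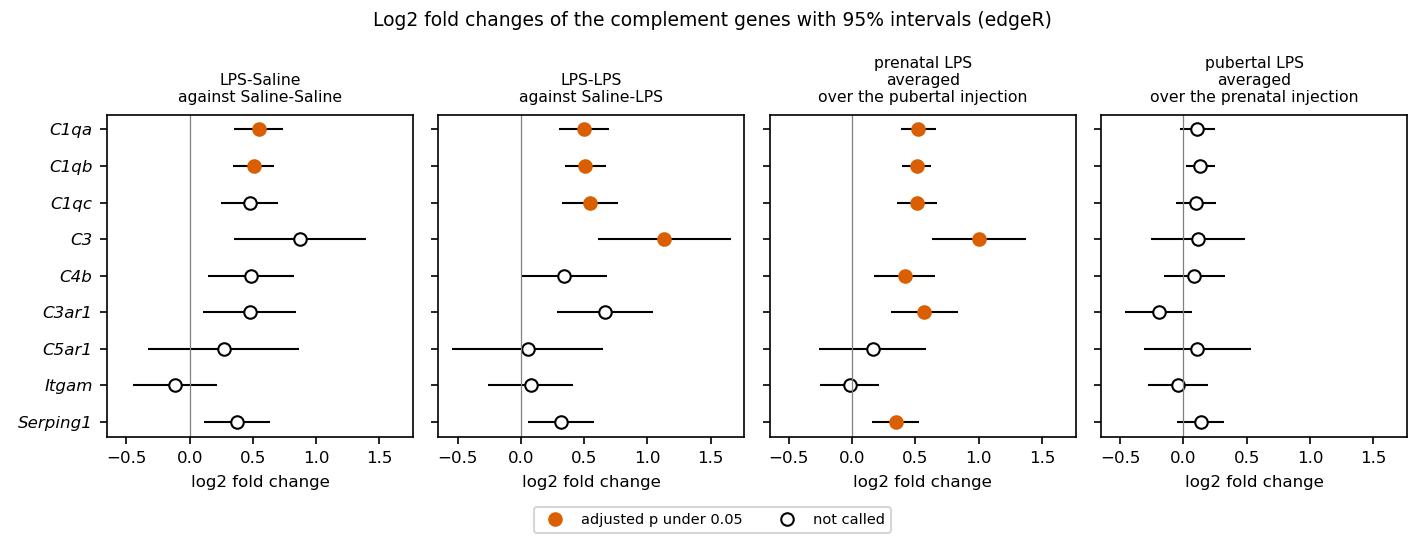
Log2 fold changes with 95% intervals (edgeR, horizontal axis) of the 9 genes in 4 comparisons, filled where the adjusted p was under 0.05. The C1q genes lie near 0.5 and C3 near 1 in the prenatal comparisons, and all 9 genes are open in the pubertal comparison at the right.

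Counted over the list, prenatal LPS alone (LPS-Saline against Saline-Saline) called 2 of the 9 genes higher, C1qa and C1qb, and 0 lower, where 0.148% of all tested genes were called higher and 0.0318% lower. The median log2 difference of the 9 was 0.48, against 0.00 over all tested genes, and 8 of the 9 were positive. The groups did not overlap and the LPS-Saline mice were higher in 4 of the 9 (C1qa, C1qb, C3, C3ar1), where the same held for 5.17% of all tested genes. With the replicate number as a block, 5 of the 9 were called. Without Saline-Saline 1, 3 or 4, or without LPS-Saline 1 or 3, 1 was called, C1qb. C1qb was called in all 24 alternative settings of this comparison (highest adjusted p = 0.0463). Because the list was chosen with earlier results of these data known, its counts beside the shares of all genes, here and below, are a description.

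After pubertal LPS in both groups (LPS-LPS against Saline-LPS) 4 of the 9 were called higher, the C1q genes and C3, and 0 lower, where 0.562% of all tested genes were called higher and 0.0477% lower. This comparison shares no mouse with the one above. The median of the 9 was 0.50, against -0.01 over all tested genes, and all 9 were positive. In 5 of the 9 (the C1q genes, C3 and C3ar1) the groups did not overlap with LPS-LPS higher, as in 4.96% of all tested genes. The count fell to 2 without Saline-LPS 2, 3 or 4 and to 1 without LPS-LPS 1 or LPS-LPS 3. Without LPS-LPS 1, LPS-LPS 3 and Saline-LPS 1 together it was 0, leaving 2 LPS-LPS and 3 Saline-LPS mice, with log2 differences of 0.48 for C1qa, 0.47 for C1qb, 0.53 for C1qc and 1.37 for C3 (adjusted p = 0.358, 0.212, 0.544 and 0.236).

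LPS-LPS against Saline-Saline, which shares its mice with the comparisons above, called 5 of the 9 higher, the C1q genes, C3 and Serping1, where 4.27% of all tested genes were called higher and 2.29% lower. C1qb rose by 0.64 ± 0.08 (adjusted p = 0.000306), C1qa by 0.63 ± 0.09 (adjusted p = 0.00202), C1qc by 0.61 ± 0.11 (adjusted p = 0.00457), C3 by 1.12 ± 0.25 (adjusted p = 0.0125) and Serping1 by 0.48 ± 0.13 (adjusted p = 0.0274). C4b missed the threshold here (0.50 ± 0.16, adjusted p = 0.0732) and passed it in 4 of 25 alternative settings: DESeq2 (adjusted p = 0.0121), the replicate block (0.000853), the Gabra6 covariate (0.002) and without LPS-LPS 4 (0.0347). The Serping1 call was lost in 5 of the 16 fits with 1 library left out (without Saline-Saline 2 or 4, or LPS-LPS 1, 3 or 4). The count was 3 without Saline-Saline 2 (C1qa, C1qb and C1qc) and 3 without the 3 libraries that stood apart (C1qa, C1qb and C3).

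The average over the pubertal injection called 7 of the 9 higher and 0 lower, with C5ar1 and Itgam the others, where 4.9% of all tested genes were called higher and 2.92% lower. The median of the 9 was 0.51, against 0.00 over all tested genes. In 4 of the 9 the groups of 8 did not overlap with prenatal LPS higher, as in 0.747% of all tested genes. C1qa, C1qb, C1qc and C3 were called in all 26 alternative settings, and without the 3 libraries that stood apart these 4 were the genes called. Within the 8 libraries under 1 CPM of Gabra6 the values were 0.53 for C1qa, 0.52 for C1qb, 0.52 for C1qc and 1.27 for C3, and these 4 were called. Within the 8 libraries at 1 CPM of Gabra6 or more they were 0.57 for C1qa, 0.53 for C1qb, 0.57 for C1qc and 0.77 for C3, called as well. C4b and C3ar1 kept their direction within both (0.52 and 0.46 for C4b, 0.58 and 0.53 for C3ar1) and were called in neither. The rank correlation of each gene's deviation with exonic length also moved with the prenatal injection. It was 0.1 to 0.224 in Saline-Saline, -0.166 to 0 in LPS-Saline, -0.043 to 0.194 in Saline-LPS and -0.27 to -0.132 in LPS-LPS, so it did not overlap between the groups of either prenatal comparison. With a correction for length and GC content the average was 0.43 for C1qa, 0.43 for C1qb, 0.43 for C1qc and 1.00 for C3, all called.

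**Figure D5:**
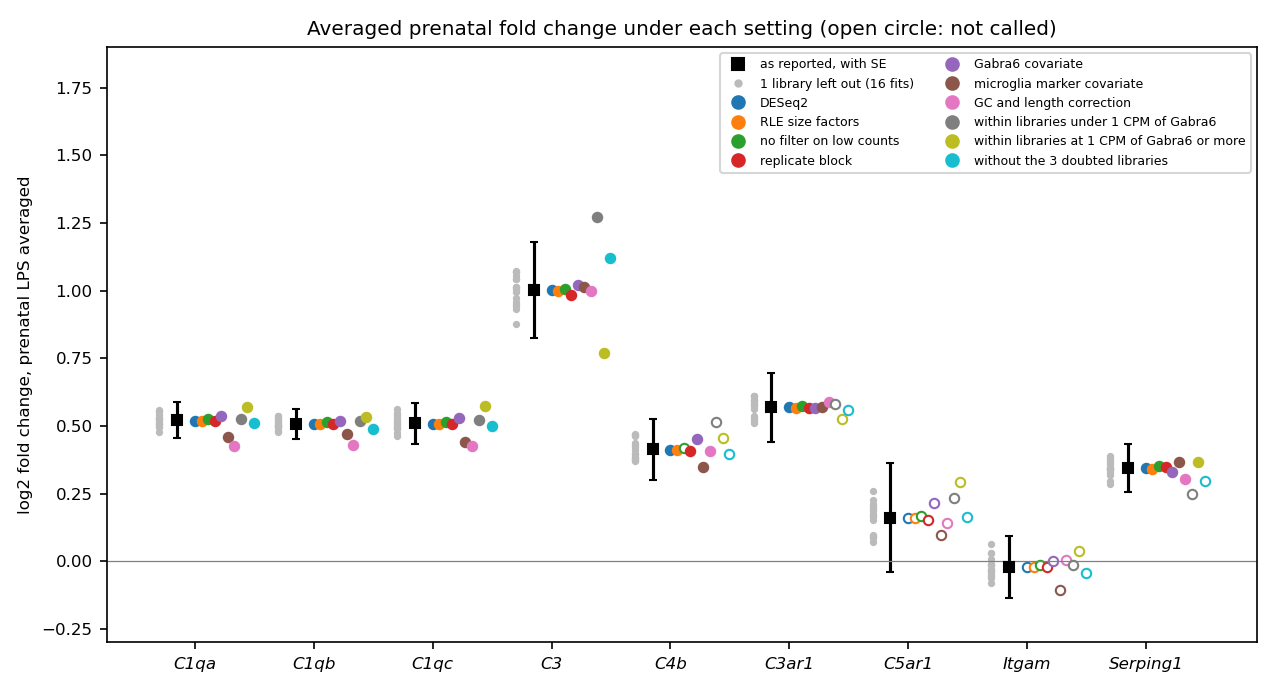
Average prenatal log2 fold change (vertical axis) of each of the 9 genes as reported with its SE (black), with each of the 16 libraries left out in turn (light grey, whether called or not) and under 10 other settings (colours, open where not called). The 3 doubted libraries of the legend are LPS-LPS 1, LPS-LPS 3 and Saline-LPS 1. C1qa, C1qb, C1qc and C3 are filled in all 10, C4b, C3ar1 and Serping1 in part, and C5ar1 and Itgam are open throughout, with Itgam on both sides of 0.

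The pubertal injection, given 2 days before sampling, was not followed by a called difference in any of the 9 genes. By edgeR, 0 of the 9 and 0% of all tested genes were called in Saline-LPS against Saline-Saline, where 535 genes had an unadjusted p under 0.05 and DESeq2 called 0. In LPS-LPS against LPS-Saline 0 of the 9 and 0% of all tested genes were called (756 genes at an unadjusted p under 0.05, 9 by DESeq2, none of the 9). Averaged over the prenatal injection, 0% were called (947 genes at an unadjusted p under 0.05, 0 by DESeq2). At an unadjusted p under 0.05, C1qb was the only gene of the list there (0.13 ± 0.06, higher with pubertal LPS, adjusted p = 0.951). For C1qa the pubertal difference was 0.11 ± 0.07 and for C3 0.11 ± 0.18. The medians of the 9 were 0.13, 0.08 and 0.11 in these 3 comparisons, all above 0.

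Whether the prenatal difference depended on the pubertal injection was tested by the interaction, in which 0 of the 9 and 0% of all tested genes were called (402 genes at an unadjusted p under 0.05, 1 by DESeq2). The interaction was 0.00 for C1qb with a 95% interval of -0.23 to 0.23, -0.05 for C1qa (-0.32 to 0.23) and 0.26 for C3 (-0.48 to 1.00), so for C3 a considerable difference in either direction remains within the interval. LPS-Saline against Saline-LPS, which compares a single injection at the 2 times, called 0 of the 9, where 0.0742% of all tested genes were called higher and 0.0212% lower. In it 5 of the 9 were higher at an unadjusted p under 0.05 by edgeR, as against 1345 of the 18875 tested genes in either direction. DESeq2 called 2 of the 9, C1qa and C1qb, and 62 of all genes. The values were 0.41 for C1qa (adjusted p = 0.145), 0.38 for C1qb (adjusted p = 0.077) and 0.77 for C3ar1 (adjusted p = 0.157). With the replicate number as a block C1qa, C1qb and C1qc were called (adjusted p = 0.0055, 0.0055 and 0.043). Time since injection and age at injection cannot be told apart in it.

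A list of 52 further complement genes (proteases, alternative and lectin pathway components, terminal components, receptors and regulators) gave 37 that were tested. By edgeR 0 of the 37 were called in any of the 9 comparisons. In the average prenatal comparison edgeR called 4.9% of all tested genes higher and 2.92% lower. There 20 of the 37 were positive, with a median of 0.01. At an unadjusted p under 0.05 by edgeR, 6 were higher and 2 lower. The same cut held 4379 of the 18875 tested genes, so these counts together are near the share of all genes. DESeq2 called Vtn, the terminal pathway inhibitor vitronectin, higher (0.19 by edgeR, adjusted p = 0.08) and Csmd3, a brain protein with complement control domains, lower (-0.16 by edgeR, adjusted p = 0.0543). The 6 with the highest CPM were Clu, Calr, Sez6l2, Sez6, Sez6l and Susd4. Clusterin (Clu), an inhibitor of the membrane attack complex, was at 719.9 ± 46.1 CPM with prenatal LPS and 668.2 ± 43.8 without (SD, n = 8 each, 0.11 ± 0.05, adjusted p = 0.151). Calreticulin (Calr), an endoplasmic reticulum chaperone that C1q can bind, was at 360.1 against 346.1 CPM (0.06, adjusted p = 0.576). Susd4, a complement regulator of neurons, was at 141.0 against 131.7 CPM (0.10, adjusted p = 0.243). Sez6, Sez6l and Sez6l2, neuronal proteins of the same domain class, differed by 0.03, -0.10 and 0.05 (adjusted p = 0.862, 0.465 and 0.66). Of the proteases bound to C1q, C1ra was at 1.63 against 1.24 CPM (0.40 ± 0.13, adjusted p = 0.0656), C1s1 at 0.728 against 0.810 CPM (-0.15 ± 0.22, adjusted p = 0.754) and C1s2 at 0.342 against 0.343 CPM (0.00 ± 0.24, adjusted p = 0.999), and C1rb was not tested. Itgb2, the partner chain of Itgam, was at 4.27 against 3.47 CPM (0.30 ± 0.14, adjusted p = 0.186). Vtn, Csmd3, the C1 proteases and Itgb2 were named after their values were seen.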

How the data were processed

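Each library was whole-brain total RNA of 1 mouse, and the deposited files hold raw counts per Ensembl gene made by the authors. STAR 2.5.2b, HTSeq 0.11.2 and the GRCm38 build are named in the submitters' processing notes; no source used here gives the annotation release, counting mode or strand setting. The 5 special HTSeq entries (reads with no feature 8.37% to 11% and ambiguous reads 5.11% to 5.48% of all counts, special entries included) were left out. Symbols came from GENCODE M21, which matched 49412 of 49671 identifiers. Genes passing filterByExpr (18875) were fitted over all 16 libraries by edgeR 4.0.16 in R 4.3.3 (TMM scaling, robust quasi-likelihood test, two-sided, Benjamini-Hochberg threshold 0.05), with 9 comparisons. SE is the log2 fold change divided by the root of the F statistic. The biological coefficient of variation was 10.4%. The code was tested on simulated data. The named genes were all 9 members, C4a, every further complement gene that was called and the 6 others with the highest CPM, and the 5 genes most like each of 6 members. Other genes are named after their values were seen, as said beside them, or as cell type markers. The members and lists were chosen with earlier results of these data known. Replicate numbers come from the titles. Same-numbered libraries deviated together from their group means to a varying degree, so blocked values stand beside results that they change. Over 11951 genes, r was 0.169 to 0.709 in LPS-Saline against Saline-Saline and 0.364 to 0.451 in LPS-LPS against Saline-LPS. It was 0.295 to 0.548 in LPS-Saline against Saline-LPS and 0.233 to 0.418 in LPS-LPS against LPS-Saline. The lowest values were in Saline-LPS against Saline-Saline (0.033 to 0.423) and LPS-LPS against Saline-Saline (0.022 to 0.447). Of the 16 libraries, 9 were on average most like the libraries of their own number in the other groups. Alternatives were DESeq2 1.42.0, RLE scaling, no filter, the block, covariates for Gabra6 and microglia markers, a GC and length correction, each library left out, and splits by Gabra6. Omitting the 3 libraries that stood apart and summing C4a with C4b were chosen after seeing the data.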

Additional observations from a re-analysis of the deposited data

Results flagged for a closer look

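None of the 36 sets of 4 values (9 genes in 4 groups) had a mouse that stood apart by Dixon's test at the 95% level.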

How the results depend on the processing

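Of 1068 alternative values of single genes, 967 kept their direction and their side of the threshold, 60 kept the direction and lost the call, 20 gained it and 21 reversed. For LPS-Saline against Saline-Saline, 2 of the 9 genes called (34 of all genes) became 4 (431) with DESeq2, 5 (409) with the replicate block, 5 (532) with the Gabra6 covariate and 1 to 3 with 1 library left out. For LPS-LPS against Saline-LPS, 4 (115) became 0 (6) without the 3 libraries that stood apart and 1 to 4 with 1 left out, and DESeq2 called 4 (413). For LPS-LPS against Saline-Saline, 5 (1238) became 3 (214) without the 3 libraries and 3 to 5 with 1 left out, while DESeq2 called 6 (1988). For LPS-Saline against Saline-LPS, 0 (18) became 2 (62) with DESeq2, 1 (27) with no filter, 3 (39) with the replicate block, 2 (46) with the Gabra6 covariate, 3 (34) with the microglia covariate and 0 to 2 with 1 left out. For the prenatal average, 7 (1476) became 4 (197) without the 3 libraries and 4 (28) within libraries under 1 CPM of Gabra6. The paired fit changed no other count of the 9 by over 1.5 times. The reversed values were those of uncalled genes. In LPS-LPS against Saline-LPS, C5ar1 was -0.011 and Itgam -0.025 with the microglia covariate, and with 1 library left out they ran from -0.127 to 0.25 and from -0.009 to 0.178. With 1 left out, Itgam ran from -0.228 to 0.048 in LPS-Saline against Saline-Saline, from -0.179 to 0.098 in LPS-LPS against Saline-Saline and from -0.08 to 0.062 in the prenatal average, where it was 0 with the Gabra6 covariate, 0.004 with the GC and length correction and 0.039 within libraries at 1 CPM of Gabra6 or more. In the prenatal average Sez6l2 was -0.011 and Sez6 -0.01 with the GC and length correction, Sez6 ran from -0.022 to 0.06 with 1 left out and Sez6l was 0.052 within libraries at 1 CPM of Gabra6 or more. GC and length were known for 99.71% of tested genes. Counting error limits C3, C3ar1 and C5ar1. The cause of these changes was not tested.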
